A study of Mus musculus with 12 samples.

Results

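Highly methylated 1 kb tiles in CpG-poor megabases of the mouse genome were described in blood stem and progenitor cells. They were chosen by a rule that used the methylation values themselves. Of 81162 tiles of 1000 bp with at least 3 measured CpGs, 4980 met the rule (6.14%). A tile was taken if it held 3 to 9 CpGs, if its mean level was over 80% over the 9 libraries not labelled leukemic, and if no unmethylated CpG island tile lay within 2 tiles. An island tile here held at least 20 CpGs at a mean level under 10%. The megabase around the tile had to hold fewer than 150 measured CpGs. A measured CpG had at least 10 reads, strands added, in each of the 12 libraries, and 921697 autosomal CpGs did. The levels of the libraries labelled leukemic took no part in the choice.

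The DNA came from bone marrow cells sorted as LSK, which lack lineage markers, carry Sca1 and cKit, and hold the blood stem cells and early progenitors. There were 4 groups of 3 libraries from C57BL/6 mice, 6 months old per the series design, and all alleles were conditional in the blood-forming tissue. The groups were Nras(G12D), in which the GTPase Nras is held in its active state, Tet2(-/-), which lacks an enzyme that oxidises methylcytosine, and Tet2(-/-) Nras(G12D) without and with leukemia. The leukemic group was identified by an L at the start of its titles, read with the series design. Its code in the labels adds the letters BMT, which they do not spell out, and it is called "labelled leukemic" here. The Cre that deletes Tet2 is not named in the sources used here, wild-type libraries were not analysed here, and nothing says whether each replicate was a separate animal, so each p reflects library-to-library spread, which may be technical.

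In mammals most CpGs outside islands are methylated. Maintenance by Dnmt1 after each round of DNA copying keeps them so, and Tet enzymes can start the removal of the mark. CpG-poor megabases tend to be gene-poor, to lie at the nuclear lamina and to be copied late in S phase. In many tumours and in cells that have divided often, such regions turn into partially methylated domains, and CpGs with no CpG nearby lose the mark most readily there. Reduced representation bisulfite sequencing reads short MspI fragments, so it samples such regions thinly. The sequences of the tiles are not shown, since no genome of the files' build (mm9) was at hand, and no gene names are given for the same reason.

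CpG-poor megabases were common and, by their definition, held few measured CpGs each. Of 2416 autosomal 1 Mb bins with a measured CpG, 855 held fewer than 150 (35.4%), and together they held 57783 CpGs. They held 6934 tiles with at least 3 CpGs, of which 71.8% met the rule. Of the others, 877 had 10 CpGs or more, 113 lay near an island tile, 589 had a level of 20 to 80% and 375 a level under 20%. The members lay in 840 bins on all 19 autosomes, from 74 on chromosome 19 to 518 on chromosome 1. They held 20678 CpGs: 2213 tiles had 3 CpGs, 1278 had 4, 696 had 5, and the rest had 6 to 9. The median distance to the nearest island tile was 559 kb, against 33 kb for tiles that met the same rule in bins with at least 600 measured CpGs. The latter, 20238 tiles in 507 bins, are called CpG-rich below and serve for comparison.

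The level that chose the members ran from just over 80% to 99.5% with a median of 94.4%. Of the members 41.1% were over 95%, and of the CpG-rich tiles 50.1%. Near the threshold, 229 members lay at 80 to 85%, and 151 tiles that met all other parts of the rule lay at 75 to 80%. Median depth of the members' CpGs was 63 to 97 reads per library. PCR copies count as reads, so counting error understates the error of a level.

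The members kept most of their methylation in every library, and the libraries labelled leukemic were lowest. Their mean level over the members was 92.7%, 93.0% and 93.3% in the Nras G12D libraries 1 to 3, and 94.1%, 94.1% and 93.5% in Tet2 knockout. The nonleukemic double mutants were at 93.2%, 93.0% and 93.2%. The libraries labelled leukemic were at 90.1%, 86.8% and 89.4%, all below the other 9. By group, Nras G12D averaged 93.0% ± 0.319, Tet2 knockout 93.9% ± 0.368, nonleukemic double mutants 93.1% ± 0.113 and leukemic double mutants 88.8% ± 1.73 (SD, n = 3 each). Over all 81162 tiles the corresponding means were 59.2%, 60.4%, 59.9% and 55.6%.

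**Figure D1:**
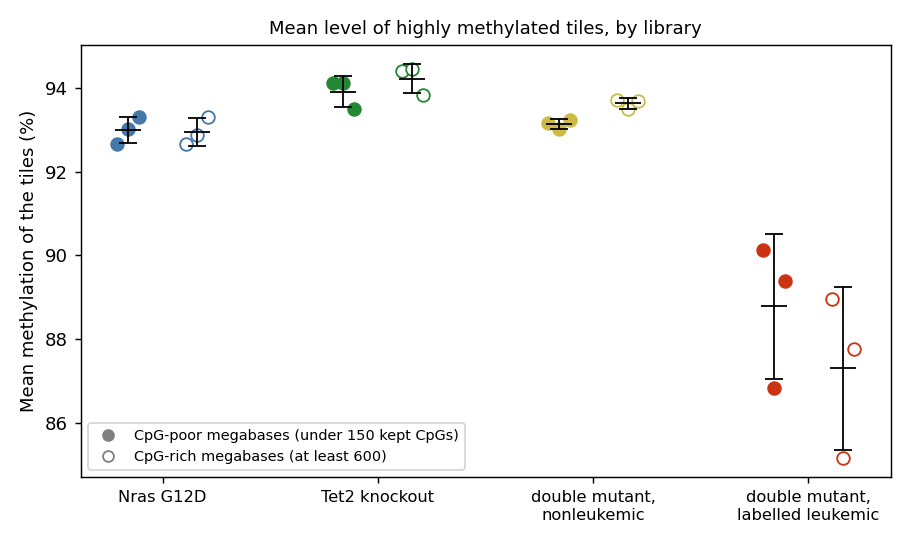
Mean methylation of the highly methylated tiles in percent for each library (filled: 4980 tiles of CpG-poor megabases, open: 20238 tiles of CpG-rich megabases), with the mean and SD of each group of 3 libraries. The leukemic libraries lie at 86.8% to 90.1% in CpG-poor tiles and lower in CpG-rich tiles, while the other 9 libraries lie at 92.6% to 94.4% in both. The axis does not start at 0.

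The rule had put the 9 other libraries high, so the leukemic fall was tested on tiles chosen again by the same rule from the groups outside each comparison. For leukemic against nonleukemic, tiles were chosen on the 6 single-mutant libraries, which gave 4975 tiles, 4957 of them members. The leukemic libraries were at 88.8% ± 1.73 and the nonleukemic ones at 93.1% ± 0.106 there, a difference of -4.31 points. The groups did not overlap. The exact two-sided permutation p was 0.1, the smallest that 3 libraries against 3 can give, and 0.12 after adjustment over 6 comparisons. Against Tet2 knockout the difference was -5.03 points and against Nras G12D -4.16 points, each without overlap and with the same exact p of 0.1.

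Among the single mutants, members were slightly more methylated in Tet2 knockout than in Nras G12D. In tiles chosen on the nonleukemic double mutant, Tet2 knockout was at 93.8% ± 0.366 and Nras G12D at 92.9% ± 0.302 (SD, n = 3 each). The difference was 0.952 points, with no overlap and an exact permutation p of 0.1. Without the 3 libraries that list over 200 positions on chromosome Y, which leaves 1 Tet2 knockout library, it was 0.5003 points. The nonleukemic double mutant lay 0.743 points below Tet2 knockout (exact permutation p = 0.1), again without overlap, and the difference was -0.317 points without those libraries. It lay 0.179 points above Nras G12D, where the libraries overlapped (exact permutation p = 0.6). That last difference was 0.0185 points without Nras G12D replicate 1 and 0.328 points without replicate 3.

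The leukemic fall was smaller in CpG-poor than in CpG-rich megabases. In the leukemic libraries the members lay 1.17, 1.66 and 1.61 points above the CpG-rich tiles. In the nonleukemic double mutant this distance was -0.541, -0.473 and -0.462 points, and in Tet2 knockout -0.276, -0.320 and -0.348 points. In Nras G12D the distance was 0.0188, 0.125 and -0.00186 points, so the tiles of both kinds were close there. In the tiles chosen on the single mutants, the distance was 1.47 ± 0.282 points in the leukemic group and -0.501 ± 0.0410 in the nonleukemic group (SD, n = 3 each). That makes a difference of 1.97 points (exact permutation p = 0.1, adjusted 0.1 over 6 comparisons), with no overlap.

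Genotypes without leukemia also differed in the distance between CpG-poor and CpG-rich tiles, by less. Tet2 knockout minus Nras G12D was -0.358 points and the nonleukemic double mutant minus Nras G12D -0.586 points. The nonleukemic double mutant minus Tet2 knockout was -0.193 points. In all 3 comparisons the libraries did not overlap, and the exact permutation p was 0.1. The last of these was -0.0914 points (exact permutation p = 0.2) in tiles over 100 kb from an island tile, and -0.105 points without the libraries with chromosome Y reads. Within level classes the first and second were -0.698 and -1.04 points. Tet2 knockout minus Nras G12D was 0.912 points over the members and 1.27 points over the CpG-rich tiles. Both groups without Tet2 and without leukemia were lower in CpG-poor than in CpG-rich tiles, and the leukemic group was higher.

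The order held across finer classes of megabases. Over tiles that met all other parts of the rule, leukemic minus nonleukemic was -3.94 points in bins with fewer than 50 measured CpGs (1408 tiles), -4.30 points from 50 to under 100 (2049 tiles) and -4.82 points from 100 to under 150 (1523 tiles). Outside the rule's limit it was -5.52, -5.95 and -6.33 points in bins with 150 to under 300, 300 to under 600, and at least 600. Each step towards more CpGs brought a larger fall. The widest step lay at the limit of 150, where the classes also become wider, so the sizes of the steps cannot be compared. Against Nras G12D the leukemic differences in these 6 classes were -3.85, -4.21, -4.55, -5.03, -5.41 and -5.65 points. The leukemic libraries are shared by both series of differences. Tet2 knockout minus Nras G12D was 0.981, 0.818 and 0.975 points in the first 3 classes and 1.05, 1.13 and 1.27 points in the last 3. No test was run on the single classes, and the rule had set the level of all groups but the leukemic one there.

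**Figure D2:**
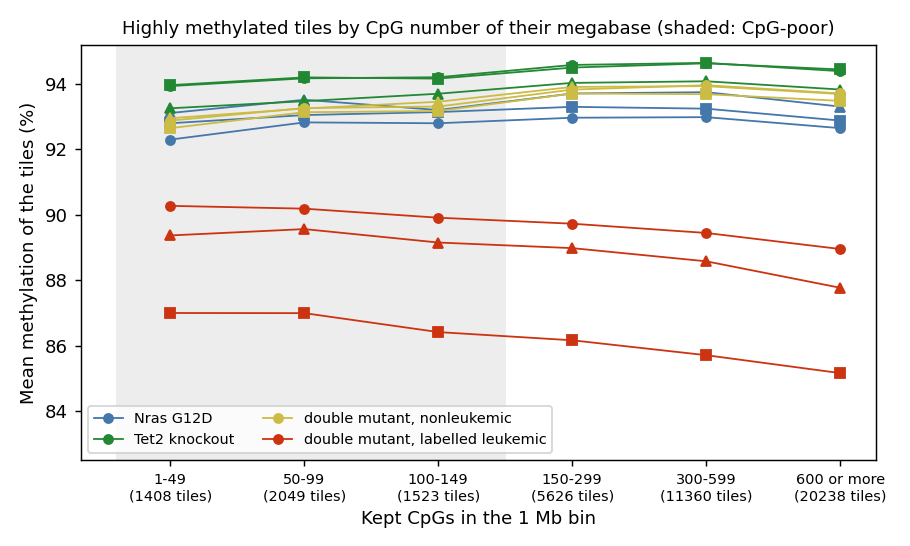
Mean methylation in percent of highly methylated tiles, by the number of measured CpGs in their 1 Mb bin, one line per library (circle, square and triangle: replicates 1, 2 and 3), with the CpG-poor bins shaded. The leukemic group has a mean of 88.9% in the first class and 87.3% in the last, while the nonleukemic double mutant has a mean of 92.8% in the first class and 93.6% in the last. The axis does not start at 0.

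Tiles of CpG-poor and CpG-rich megabases differ in more than density, so the fall was read within classes of like tiles, chosen on the single mutants. At a single-mutant level over 95% leukemic minus nonleukemic was -3.46 points in CpG-poor and -4.70 points in CpG-rich tiles. At 90 to 95% it was -4.72 against -7.01 points, at 85 to 90% -5.60 against -9.23, and at 80 to 85% -5.12 against -9.78. The CpG-poor fall was the smaller in each of these 4 classes, and the gap was widest at the lowest level. Beyond 100 kb from an island tile, where 4526 of the CpG-poor tiles lie, the differences were -4.27 and -6.51 points. With 3 CpGs in the tile they were -5.10 and -6.85 points, and with 9 CpGs -2.37 (73 tiles) and -5.38 points. Within level classes weighted equally, the leukemic minus nonleukemic difference of the distance was 2.96 points, against 1.97 over all tiles. These class weights were added after seeing the data.

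**Figure D3:**
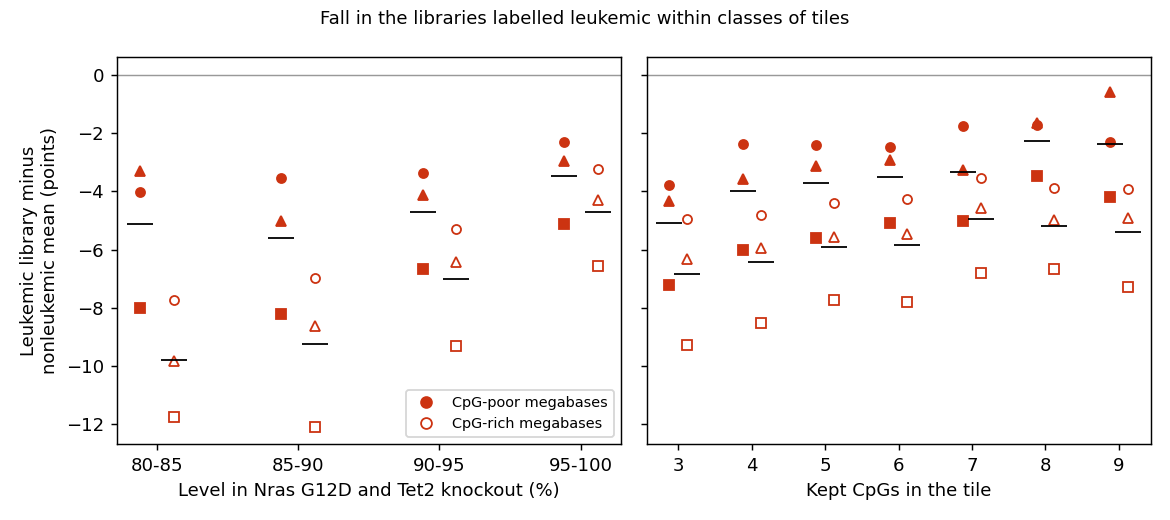
Level of each leukemic library minus the mean of the nonleukemic double mutant in percentage points (circle, square and triangle: replicates 1, 2 and 3, bar: mean), in CpG-poor (filled) and CpG-rich (open) tiles, by the level in the single mutants and by the number of CpGs in the tile. The bar of the CpG-poor tiles is nearer to 0 in every class, as with -5.12 against -9.78 points at 80 to 85%.

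Read depth moved with these groups too. The median number of reads per CpG in the members, as a ratio to that in the CpG-rich tiles, was 0.858, 0.783 and 0.872 in the leukemic libraries. It was 0.922, 0.917 and 0.937 in the nonleukemic double mutant and 0.913 to 0.988 in the single mutants. The leukemic ratios lay below all others. With levels weighted by reads, the leukemic minus nonleukemic difference of the distance was 2.11 points. It was 1.76 points with a coverage minimum of 20 reads and 1.97 points without CpGs of very high coverage.

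CpGs with no close neighbour fell furthest. In the members, 3561 CpGs had no other CpG listed in any library within 35 bp, and 10700 had at least 2. CpGs beyond the end of a read cannot be listed, so the former are isolated among listed CpGs only. Isolated CpGs were at 87.2%, 82.7% and 86.3% in the leukemic libraries, and clustered ones at 91.7%, 89.2% and 91.3%. In the nonleukemic double mutant the isolated CpGs were at 92.3%, 92.0% and 92.4% and the clustered ones at 93.7%, 93.4% and 93.6%. Isolated CpGs were thus lower in all 6 libraries, and isolated minus clustered ran from -6.45 to -4.46 points in the leukemic and from -1.41 to -1.24 in the nonleukemic ones. In tiles chosen on the single mutants, isolated minus clustered was -5.25 ± 1.05 points in the leukemic group and -1.32 ± 0.0971 in the nonleukemic group (SD, n = 3 each). The difference was -3.93 points, without overlap (exact permutation p = 0.1, adjusted 0.12).

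**Figure D4:**
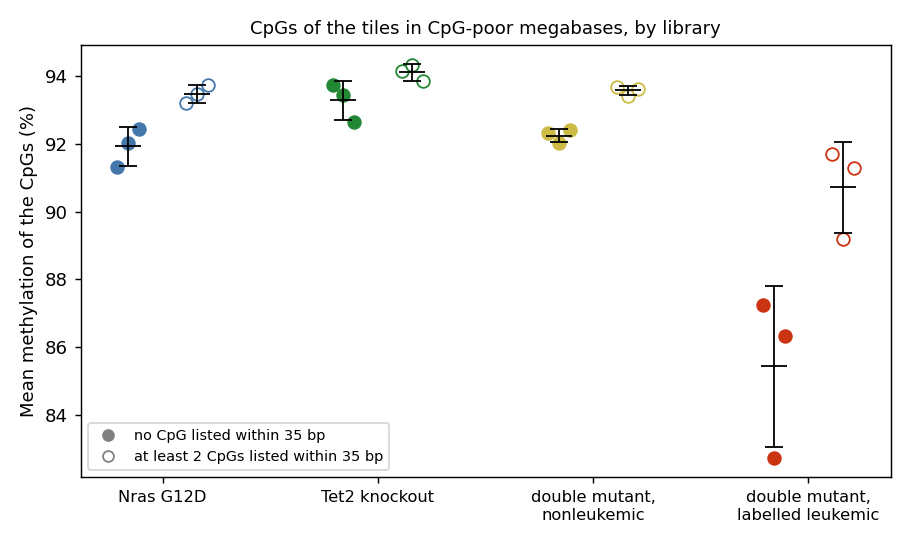
Mean methylation in percent of the members' CpGs for each library, for CpGs with no other CpG listed within 35 bp (filled) and with at least 2 (open), with the mean and SD of each group. Isolated CpGs lie lower in every library, and the leukemic libraries are spread from 82.7% to 87.2% there. The axis does not start at 0.

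Isolation and density of the megabase went in different directions. From nonleukemic to leukemic, isolated CpGs of the members differed by -6.82 points, CpGs with 1 neighbour by -4.66 and clustered CpGs by -2.87. In CpG-rich tiles the same classes differed by -8.25, -6.58 and -4.82 points. CpG-rich tiles had the larger fall in each class. In Nras G12D and Tet2 knockout, isolated minus clustered was -1.54 ± 0.312 and -0.830 ± 0.392 points in the members (SD, n = 3 each). In tiles chosen on the nonleukemic double mutant, this distance was 0.728 points smaller in Tet2 knockout than in Nras G12D, without overlap (exact permutation p = 0.1). It was 0.375 points smaller in tiles of 5 to 9 CpGs and 0.449 points smaller without the libraries with chromosome Y reads, and the groups overlapped in the former (exact permutation p = 0.6).

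More members were partly methylated in the leukemic libraries, and few lost most of their methylation. In the leukemic libraries 234, 273 and 368 of the 4980 members were under 70%, 30, 20 and 58 under 50%, and 2, 2 and 6 under 20%. In the nonleukemic double mutant 11, 13 and 12 were under 70% and 0, 0 and 1 under 50%. Among the single mutants, Nras G12D replicate 3 and Tet2 knockout replicate 2 stood apart with 62 and 50 members under 70%, and the other 4 had 4 to 16. Of CpG-rich tiles, 8.06% ± 2.01 were under 70% in the leukemic group, and of the members 5.86% ± 1.38 (SD, n = 3 each). In tiles chosen on the single mutants, 5.87% ± 1.34 of the leukemic and 0.355% ± 0.0614 of the nonleukemic values were under 70% (SD, n = 3 each, exact permutation p = 0.1, adjusted 0.2). The difference was 5.51 points, and 2.53 points in tiles of 5 to 9 CpGs.

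Most low members were low in 1 leukemic library only. Of 749 members under 70% in at least 1 leukemic library, 637 were so in 1 library only (85.05%), and 14 in all 3. In the CpG-rich tiles 71.5% of such tiles were low in 1 library only and 7.85% in all 3. More of the CpG-rich tiles were low in any leukemic library (17.7%, against 15.0% of the members), which by itself raises sharing. The sharing expected from each library's own share of low tiles was not computed. Under 50% there were 99 members, 92 of them in 1 library and 2 in all 3. Leukemic replicate 3 held 52 of the 92, replicate 1 held 27 and replicate 2 held 13. Levels of different leukemic libraries correlated across the members with Pearson's r of 0.185 to 0.327, against 0.496 to 0.510 among the nonleukemic libraries, 0.318 to 0.482 among Nras G12D and 0.235 to 0.421 among Tet2 knockout. These r are across 4980 tiles, which are not independent and share a library's depth. All libraries but the leukemic ones took part in choosing these tiles, so the r are a description.

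Each tile's methylated and unmethylated read numbers were tested in a quasi-binomial fit over all 81162 tiles and 12 libraries. A tile was called at a Benjamini-Hochberg adjusted p under 0.05 and a difference of at least 10 points. Leukemic against nonleukemic, 98 members were called lower (1.97%) and 3 higher. Over all tiles 3.7% were called lower and 0.111% higher, and of the CpG-rich tiles 5.83% lower. The share among the members was thus below that of all tiles. The median difference was -3.25 points over the members, -4.86 over the CpG-rich tiles and -1.98 over all tiles. In the tiles chosen on the single mutants, 98 of 4975 were called lower and 4 higher. In 792 members all leukemic libraries lay below all nonleukemic ones (15.9%, against 19.7 percent of all tiles), and in 124 above (2.49%, against 2.52 percent).

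The count of calls depended on single libraries and on the fit. Without nonleukemic replicate 1, 2 or 3 it was 12, 9 and 16 lower tiles, without leukemic replicate 1 or 3 it was 222 and 195, and without Nras G12D replicate 1 or 2 it was 56 and 52. limma on log2 ratios called 1 tile lower and 1 higher, and a fit on the 6 libraries compared called 4 lower. The difference in mean level kept its direction with each of these libraries left out. The fit on 12 libraries pools the spread of all 4 groups. The leukemic group varied most in the members' mean level, with an SD of 1.73 points against 0.113 to 0.368 in the others. The fit on 6 libraries leaves out 2 of the less variable groups and has fewer degrees of freedom, and these effects were not told apart.

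The 98 lower members lay in 90 bins on all 19 autosomes, with at most 3 in a bin. The number of bins expected of as many members drawn at random was not computed. Their median level was 77.2% in the leukemic group and 94.8% in the nonleukemic group. In 91 of them the libraries did not overlap. These members were called on this same difference, so the medians and the lack of overlap describe the choice and are no further support. All 3 leukemic libraries were under 50% in 2 of them.

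Named tiles are the called members with the largest difference and no overlap, by mm9 coordinates. A tile of chromosome 15 from 62052000 to 62052999 had the largest fall, with a difference of -57.3 points. It is a tile with 3 CpGs and 55 to 288 reads per library. In leukemic replicates 1 to 3 the level was 49.2%, 24.97% and 31.7%. The nonleukemic replicates had 84.6%, 95.24% and 97.9%, and the single mutants at 80.7% to 96.3%. The adjusted p was 0.00239 in the quasi-binomial model, 0.0549 in limma and 0.0609 on the 6 libraries compared.

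On chromosome 1 from 170239000 to 170239999 (4 CpGs), 2 leukemic libraries were low, at 27.7% and 23.6%, and replicate 3 was at 81.7%. The nonleukemic libraries were at 94.5%, 95.3% and 94.5%, and the difference was -50.4 points (quasi-binomial adjusted p = 0.00303, in limma 0.0937). On chromosome 10 from 111018000 to 111018999 (4 CpGs), leukemic levels were 65.4%, 44.7% and 69.7%, against 96.1%, 95.04% and 95.1% without leukemia. This tile had an adjusted p of 0.000974 and was called in all 22 alternatives run on it, with adjusted p up to 0.0454. Tet2 knockout was at 99.6% to 100% there and Nras G12D at 88.7% to 95.6%.

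The remaining falls lie on chromosome 7 from 113740000 (-36.4 points, adjusted p = 0.00838) and on chromosome 1 from 152583000 (-32.4 points, adjusted p = 0.0245), each with 4 CpGs. Their calls were lost in 5 of 22 and 6 of 21 alternatives. For the chromosome 7 tile, dropping nonleukemic replicate 1 gave an adjusted p of 0.0539 and dropping replicate 2 gave 0.0601. Without nonleukemic replicate 1, 2 or 3 the chromosome 1 tile was at an adjusted p of 0.0858, 0.112 and 0.0909, all in the quasi-binomial model.

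There were 3 called rises among the members. On chromosome 3 from 150179000 to 150179999 (4 CpGs) all 3 leukemic libraries were at 100%, the nonleukemic ones at 81.2%, 89.4% and 68.3%, and Nras G12D at 95.6%, 94.7% and 100%. Tet2 knockout was at 73.0%, 94.5% and 80.2% there. The leukemic libraries were thus nearer to Nras G12D than to Tet2 knockout or the nonleukemic group. The same tile was the member called higher against Tet2 knockout (17.4 points, quasi-binomial adjusted p = 0.0116). On chromosome 5 from 63368000 to 63368999 (5 CpGs) leukemic levels were 99.88%, 96.0% and 100%, against 76.0%, 72.2% and 88.3% without leukemia. Tet2 knockout was at 98.2%, 80.5% and 81.3% in this tile, and Nras G12D at 96.4%, 97.9% and 92.0%. Against the nonleukemic group the quasi-binomial adjusted p was 0.0198 for the chromosome 3 tile and 0.0303 for this one. The other rise, on chromosome 5 from 56190000 (4 CpGs, 14.9 points, adjusted p = 0.0424), falls outside the naming rule because leukemic replicate 3, at 83.7%, lay below nonleukemic replicate 3, at 86.4%, and it is named after its values were seen. The adjusted p was 0.0506, 0.0780 and 0.0638 for the chromosome 3 tile without leukemic replicate 1 and without nonleukemic replicate 1 or 3. For the chromosome 5 tile it was 0.0598 without leukemic replicate 1 and 0.116, 0.145 and 0.0619 without nonleukemic replicate 1, 2 or 3.

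Against the single mutants the leukemic libraries had more calls for Tet2 knockout than for Nras G12D. Against Tet2 knockout 274 members were called lower (5.50%, of all tiles 7.08 percent) and 1 higher (of all tiles 0.144 percent). Against Nras G12D 64 were lower (1.29%, of all tiles 1.9 percent) and 1 higher (of all tiles 0.0838 percent). Both shares called lower were below those of all tiles. Without overlap, 899 members lay below Tet2 knockout and 58 above (of all tiles 19 and 2.22 percent), and 702 below Nras G12D and 95 above (of all tiles 14.8 and 2.86 percent). In the tiles chosen outside the comparison, 270 and 64 were lower. Without Tet2 knockout replicate 1, 2 or 3 the former count was 133, 96 and 119, and without leukemic replicate 1 it was 461. Without Nras G12D replicate 1, 2 or 3 the latter was 12, 2 and 5, and without leukemic replicate 1 or 3 it was 182 and 145. Without Tet2 knockout replicate 1 it was 39, and without nonleukemic replicate 1, 2 or 3 it was 29, 29 and 28.

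The largest falls against single mutants included the chromosome 15 tile described above, at -59.2 points from Tet2 knockout and -52.5 from Nras G12D, and the chromosome 1 tile from 170239000, at -47.0 points from Nras G12D. A tile of chromosome 10 from 56160000 (3 CpGs) was at 72.6%, 47.1% and 0% in the leukemic libraries and at 87.3% to 100% in Tet2 knockout (quasi-binomial adjusted p = 0.0391). A tile of chromosome 4 from 89176000 (3 CpGs) was at 80.9%, 18.8% and 41.8%, against 96.8% to 100% in Tet2 knockout (adjusted p = 0.0165). The leukemic libraries were far apart in both. On chromosome 15 from 20809000 (3 CpGs) they were at 16.5%, 54.1% and 72.2%, against 88.5% to 91.8% in Nras G12D (adjusted p = 0.0482). The tile that rose against Nras G12D, on chromosome 14 from 81796000 (3 CpGs), went from 81.7% to 93.9% there to 97.3% to 100%, a rise of 13.3 points (adjusted p = 0.0274). In Tet2 knockout and the nonleukemic double mutant it was at 93.6% to 97.1%. No alternatives were run on these named tiles against the single mutants. In tiles chosen outside the comparison, the fit on the 6 libraries compared called none against either single mutant. There limma called none against Nras G12D, and 41 lower and 1 higher against Tet2 knockout.

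No member was called in the 3 comparisons among groups without leukemia, by the quasi-binomial model or by limma. Over all tiles the shares called were 0 percent in both directions for the comparisons with Tet2 knockout, and 0.00246 percent higher when the nonleukemic double mutant was set against Nras G12D. In the quasi-binomial model with no adjustment, at p under 0.05, 182 members were higher in Tet2 knockout than in Nras G12D and 49 lower (3.65% and 0.984%, of all tiles 5.01 and 0.966 percent). For the nonleukemic double mutant against Tet2 knockout 22 were higher and 119 lower (of all tiles 0.993 and 2.37 percent). Against Nras G12D 40 were higher and 64 lower (of all tiles 2.08 and 0.773 percent). Without overlap, Tet2 knockout was above Nras G12D in 404 members and below in 122 (of all tiles 8.76 and 2.53 percent). The nonleukemic double mutant was above Tet2 knockout in 119 and below in 463 (of all tiles 4.07 and 6.91 percent), and above Nras G12D in 275 and below in 265 (of all tiles 8.39 and 3.54 percent). The spread in this model includes the leukemic libraries. In tiles chosen outside each comparison the counts were also 0 in all 32 alternatives run, among them a fit without the leukemic libraries. With 3 libraries per group, counts of 0 do not show that these groups are alike.

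The fall was seen on every autosome. In each of the 19 autosomes all leukemic libraries lay below all nonleukemic ones in the mean over the members, with differences from -3.59 points on chromosome 19 to -5.29 points on chromosome 17. The nonleukemic libraries took part in choosing the members, so these values are a description. On tiles chosen from the single mutants the groups again did not overlap on any of the 19 autosomes, with differences from -5.29 to -3.54 points. Of 532 bins with at least 5 members, the leukemic mean was lower in 517 and higher in 15. Of 531 bins with at least 5 tiles chosen on the single mutants, it was lower in 514 and higher in 17. The median of the 532 bins was -4.11 points, with quartiles of -5.83 and -2.71 points. Tet2 knockout was above Nras G12D in 390 of these bins and below in 142, with a median of 0.869 points. In tiles chosen on the nonleukemic double mutant it was above in 390 of 530 bins and below in 140. The members of a bin resembled each other little. The estimated share of the variance between tiles that lay between bins was -0.332%, 0.490% and 0.666% in the leukemic libraries. This share was 4.44% to 6.55% in the nonleukemic ones. In Nras G12D it was 0.809%, 3.04% and 0.845%, and in Tet2 knockout 3.54%, 3.56% and 2.37%, so a low share was not particular to the leukemic libraries. An estimate below 0 stands for no detectable share.

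**Figure D5:**
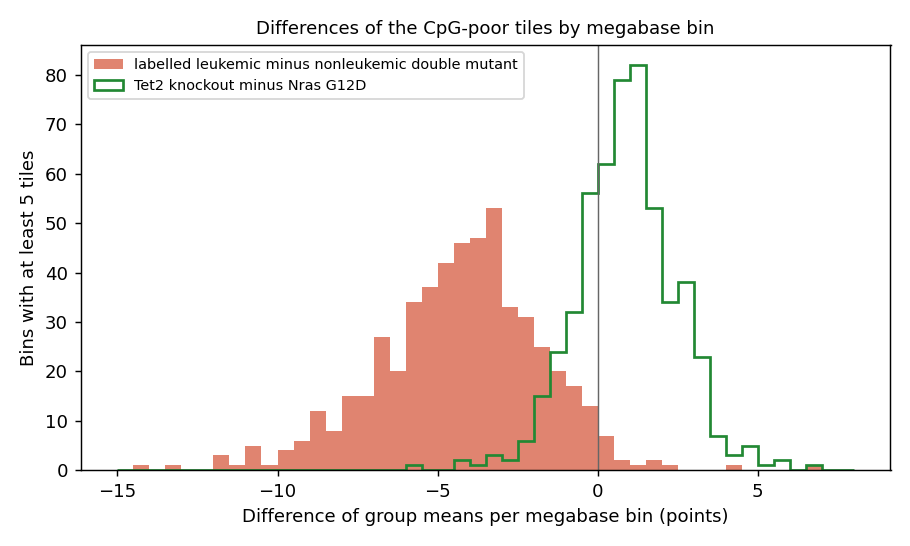
Difference of group means in percentage points for each of the 532 CpG-poor megabase bins with at least 5 members, shown as the number of bins per 0.5 points (filled: leukemic minus nonleukemic, line: Tet2 knockout minus Nras G12D). The leukemic differences centre on -4.11 points and lie below 0 in 517 bins, and the Tet2 knockout differences centre on 0.869 points.

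In the bins with the largest falls the leukemic means stayed at 73.0% or higher. In the bin of chromosome 15 from 62000000 to 62999999 (8 members), leukemic levels were 87.4%, 73.0% and 82.7%, against 94.3%, 94.7% and 96.2% without leukemia. It holds the tile with the largest fall. In the bin of chromosome 10 from 15000000 (5 members) leukemic levels were 87.5%, 84.9% and 77.1%, against 93.6% to 96.7%. In that of chromosome 1 from 170000000 (10 members), which also holds a named tile, they were at 84.7%, 76.7% and 88.3% against 94.0% to 95.9%. In all 3 the groups did not overlap.

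The 3 bins named for the smallest fall were picked by leukemic minus nonleukemic level, which favours a low nonleukemic level. In the bin of chromosome 6 from 107000000 to 107999999 (7 members) leukemic levels were 93.4%, 93.4% and 93.3%, and single-mutant levels 92.6% to 97.6%. The nonleukemic libraries were at 84.7%, 84.6% and 90.1%. The low level came from the tiles at 107053000, with 74.2%, 67.8% and 83.0% in the nonleukemic libraries, and at 107815000, with 62.7%, 61.2% and 82.0%. No other library was under 86.0% in either tile. CpGs with at least 20 reads in each nonleukemic library and listed in no other library numbered 297 on the autosomes, 48 of them on chromosome 6 and 13 in this bin and the 2 bins on either side. The part of inherited sequence in this difference was not tested. In the bins of chromosome 1 from 114000000 (5 members) and of chromosome 10 from 71000000 (6 members), the nonleukemic libraries were at 88.9% to 91.6% and 87.0% to 93.4%. The leukemic ones were at 93.1% to 96.3% and 90.6% to 94.6%. No such CpG was found within 2 bins of either.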

How the data were processed

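Reduced representation bisulfite libraries were made by MspI digestion, size selection and single-end reads, per the labels' protocols. Per the submitters' processing notes, Bismark was used with mm9 (NCBIM37). The tables deposited by the authors give, for each cytosine of a CpG, the coverage as a count of reads (at least 10) and the percent with C and with T. Methylated and unmethylated reads were rounded from them and the strands added. Libraries summed to 96300485 to 199736369 reads, and mitochondrial CpGs read as methylated at 0.222% to 1.00%. A tile's level is the unweighted mean of its CpGs.

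Dispersions of the quasi-binomial fit were moderated as limma's squeezeVar does, with a lower limit of 1 (8 residual degrees of freedom). Named tiles were, against the nonleukemic double mutant, the 5 largest called falls and rises without overlap, otherwise the 3 largest calls per direction. Named bins were the 3 largest and 3 smallest falls. Positions on chromosome 18 were left out. The members, classes and tests were chosen with earlier results of these data known. Tools were R 4.3.3 with limma 3.58.1, and Python 3.11.15 with pandas 2.3.3, SciPy 1.17.1 and NumPy 2.4.6.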

Additional observations from a re-analysis of the deposited data

Results flagged for a closer look

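Chromosome Y positions, which no comparison used, were listed in 3 libraries: 360 in Tet2 knockout replicate 1, 251 in Tet2 knockout replicate 2 and 349 in nonleukemic replicate 1, against 2 to 18 in the other libraries. In the members these 3 libraries were at 94.1%, 94.1% and 93.2%, against 93.5% in Tet2 knockout replicate 3 and 93.0% and 93.2% in the other nonleukemic libraries.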

How the results depend on the processing

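Differences of the members' mean level, of the distance between CpG-poor and CpG-rich tiles and of isolated minus clustered CpGs kept their direction in every alternative run, 28 to 34 per comparison. Some alternatives could not change a difference. The replicate block alters only p, and leaving out a leukemic library leaves comparisons among the other groups unchanged. Leukemic minus nonleukemic ranged from -4.98 to -3.33, from 1.46 to 2.96 and from -4.34 to -3.34 points. No design with 3 libraries per group can pass 0.05 in the exact permutation test. The share under 70% changed direction for Tet2 knockout minus Nras G12D, from -0.181 points to 0.0496 at a level over 90%, and ran from -0.460 to 0.198 with each library left out, above 0 without Nras G12D replicate 3 (0.198) or Tet2 knockout replicate 1 (0.0537). For nonleukemic double mutant minus Tet2 knockout it went from -0.284 to 0.0135 without leukemic replicate 3, Tet2 knockout replicate 2 and Nras G12D replicate 3 together, an alternative added after seeing the data, as were those on classes of tiles. The cause was not tested.

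Calls of single tiles moved most. Lower tiles in the leukemic group numbered 98, 270 and 64 against nonleukemic, Tet2 knockout and Nras G12D, and higher tiles 4, 3 and 1. With bins under 100 CpGs 65, 173 and 42 were lower, and with 5 to 9 CpGs per tile 34, 79 and 19, since both leave fewer tiles. With a minimum difference of 20 points 35, 78 and 25 were lower. On the 6 libraries compared 4, 0 and 0 were lower, in limma 1, 41 and 0, and without the libraries with chromosome Y reads 4, 0 and 3. Thinned to equal coverage, 56 were lower against nonleukemic, and without the 3 libraries above 235, and 26 against Nras G12D. Leaving out each library in turn gave 9 to 222, 96 to 461 and 2 to 182 lower tiles, and 0 to 6, 3 to 9 and 0 to 5 higher ones. Higher tiles against nonleukemic numbered 0 on the 6 libraries and without chromosome Y libraries, 1 in limma, at 20 points and with 5 to 9 CpGs, 2 at a level over 90%, when thinned and without chromosome 3 or chromosomes 3, 4, 6 and 8, and 7 with no minimum. Against Tet2 knockout they numbered 0 on the 6 libraries, without chromosome Y libraries, at a level over 90% and with 5 to 9 CpGs. They numbered 1 in limma, on all 9 choosing libraries and without chromosome 3 or chromosomes 3, 4, 6 and 8, 5 with no minimum and without the 3 libraries, and 6 at a coverage of 20 and with bins under 200. Against Nras G12D they numbered 2 at a level over 70% and 0 in limma, on the 6 libraries, without chromosome Y libraries, when thinned, at 20 points and with 5 to 9 CpGs. The replicate number as a block changed no count by over 1.5 times (89, 284 and 49 lower) and gave the mean level difference of -4.31 points with an exact p of 0.25. Same-numbered libraries did not deviate together across tiles (r from -0.0327 to 0.0320). An offset common to all tiles does not enter r, so r cannot settle whether the numbers are a pairing.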

Other observations

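Members with more CpGs differed less between leukemic and nonleukemic double mutant. In tiles chosen on the single mutants, the difference was -5.10 points with 3 CpGs, -3.99 with 4, -3.72 with 5, -3.50 with 6, -3.34 with 7, -2.29 with 8 and -2.37 with 9. In CpG-rich tiles the corresponding differences were -6.85, -6.42, -5.90, -5.85, -4.96, -5.18 and -5.38 points. The number of CpGs counts measured CpGs only.

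Levels also varied more between members in the leukemic libraries, with an SD between tiles of 10.1, 9.55 and 12.04 points, against 5.16, 5.20 and 5.06 points in the nonleukemic double mutant. In Nras G12D replicate 3 and Tet2 knockout replicate 2 this SD was 7.37 and 7.06 points, and in the other single-mutant libraries 4.69 to 5.62 points. All libraries but the leukemic ones took part in choosing the members, which limits how low their tiles can lie. These SDs are therefore a description, and none was taken on tiles chosen outside the comparison.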
